A study of Mus musculus with 54 samples.

Results

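Prostate tumour tissue of intact mice of the genotype labelled DKO was compared between late disease, here called endstage, and 12 weeks of age. The libraries were chosen by the genotype, treatment and age in the labels, and 7 of the 54 libraries in the series qualified. The 3 endstage animals were 37, 46 and 35 weeks old (endstage replicates 1, 2 and 3), and the 4 animals of the earlier age were all 12 weeks old (12-week replicates 1 to 4). All 7 animals were intact, so the groups were of the same labelled genotype and treatment and differed in age. The labels do not spell out the alleles behind DKO. The same change with age was measured in intact mice of 2 further genotypes, labelled DKO_EE (8 endstage animals aged 28 to 42 weeks, with pieces of an animal averaged, against 4 animals aged 12 weeks) and DKO_EP (3 endstage animals aged 39 to 52 weeks against 4 animals aged 12 weeks).

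The endstage pieces carry the letters PT, DP and AP.DP, which the labels do not explain, and the 12-week samples name no piece, so age cannot be told apart from the part of the gland or tumour that was taken. Values are the deposited log2 of a normalised read count plus 1. A difference of 1 is a doubling of the normalised count plus 1, it understates the change of low genes, and levels can be compared between samples but not between genes. The 7 libraries held 5298874 to 8051777 assigned reads. Nothing in the labels says more about how the animals relate to each other than their separate identifiers.

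A prostate gland is lined by luminal cells, which secrete under the control of androgens, and by basal cells, and it holds a few neuroendocrine cells. Neuroendocrine cells store amines and peptides in dense-core granules and release them as nerve endings do. Prostate cancer that loses its dependence on androgens can take on this neuroendocrine form, and loss of Rb1 is known from it. RB1 restrains the E2F factors that switch on genes of DNA replication and division.

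Of 16772 genes tested with limma, 3023 (18% of all genes) were higher at endstage and 3140 (18.7%) were lower at an adjusted p under 0.05, so 36.7% of all genes changed. The 18% and 18.7% are the shares that each count of list members below stands beside. The median difference over all genes was -0.04. Differences of over 4 on the log2 scale were found for 324 higher and 390 lower genes. All 3 endstage animals lay above all 4 of the 12-week animals for 4138 genes (24.7%) and below them for 4386 (26.2%). In a bulk sample, a lower value may come from fewer cells of a type or from less RNA per cell, and these cannot be told apart.

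The label of a prostate tumour was checked against epithelial and prostate secretory genes. Epcam, an adhesion protein of epithelia, had 12.48, 12.62 and 12.51 at endstage and 12.33, 12.33, 12.31 and 12.40 at 12 weeks (adjusted p = 0.743). Krt8, a keratin of simple epithelia, had 13.23, 13.69 and 13.00 at endstage and 12.62 to 13.00 at 12 weeks (adjusted p = 0.406). Neither gene changed past the test. Pbsn and Msmb, secretory genes of the prostate, were listed at 0 in all 3 endstage animals and had 3.37 to 7.95 and 3.90 to 7.80 at 12 weeks. Of 31 prostate secretory genes, 19 fell. The adhesion protein Cdh1 fell by 2.15 ± 0.36 (adjusted p = 1.62e-05). Of 31 genes of epithelial junctions and simple keratins, 13 fell, 1 rose and 17 did not pass. The epithelial label of the endstage samples thus rests on Epcam and Krt8, and not on secretory genes or on that list as a whole.

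Rb1 and Trp53, tumour suppressor genes, were measured over the whole gene, so a transcript that lacks an excised exon would still count. Rb1 had 9.06, 8.62 and 9.27 at endstage and 8.45, 8.29, 8.04 and 8.01 at 12 weeks (difference 0.78 ± 0.29 SE, adjusted p = 0.0303). Trp53 fell, with 7.97, 7.97 and 7.87 at endstage and 8.75 to 9.24 at 12 weeks (difference -1.04 ± 0.27, adjusted p = 0.00262). The endstage and 12-week animals did not overlap for Rb1 or Trp53. The Rb1 call was lost without endstage replicate 1 or 3 (adjusted p = 0.0833 and 0.143), without 12-week replicate 3 or 4 (0.0679 and 0.0711) and without 12-week replicates 1 and 4 together (0.0801). These values do not test whether an allele was deleted.

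Skeletal muscle reads moved with age. Ttn, the giant spring protein of striated muscle, took 0.0271%, 0.00808% and 0.00185% of the reads of the endstage libraries, against 2.55%, 0.113%, 0.183% and 1.40% of the 12-week libraries. The Ttn share at 12 weeks was 0.00137% to 0.0165% in DKO_EE and 0.000813% to 2.53% in DKO_EP. Of 18 skeletal muscle genes, 3 were called in either direction in DKO_EE and 15 in DKO_EP. In DKO, all 18 fell (median difference -7.79), and Myh4 and Pvalb were listed at 0 in all 3 endstage animals. Without the 12-week replicates 1 and 4, whose Ttn share was above 1%, 14 of the 18 muscle genes still passed as lower, and over all genes 2150 genes were higher and 2346 lower. The Ttn call itself was lost without them and without endstage replicate 3 (adjusted p = 0.164 and 0.0714).

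Animal identifiers begin with ET in endstage replicates 1 and 2, with T in 12-week replicates 1 to 3, and with DKOE in endstage replicate 3 and 12-week replicate 4. What the letters stand for is not given in the labels. Between the 2 DKOE animals alone, 6101 of the 6163 called genes (99%) differed in the same direction as in the comparison of all 7. The same direction held for 84.13% of all genes, and the pair is itself part of that comparison. The endstage and 12-week animals did not overlap for 5900 of the called genes. For these, any pair of 1 endstage and 1 12-week animal has that direction. The 99% was thus largely fixed in advance and is no test of the letters. Outside the 12-week DKO group, T letters occur only in groups whose animals all have them. In a fit with the letters as a covariate, the 12-week DKO level therefore rests on replicate 4 alone. Each result of that fit given here carries this limit. With the letters as a covariate, 1216 genes were higher and 1034 lower. In that fit, 19 cell cycle genes, 15 DNA repair genes, 15 synapse genes, 9 granule genes and 8 neuroendocrine factors passed as higher. Fewer passed among glycolysis and hypoxia genes (4, against 14 without the covariate), nucleotide and one-carbon genes (4, against 14) and chromatin genes (4, against 11). As lower, 0 of the smooth muscle genes passed (13 without it), 1 Schwann cell gene (12), 0 of the T and natural killer cell genes (6), 2 basal genes (13), 3 antigen presentation genes (11), 4 receptor kinases (15), 5 genes of epithelial junctions (13), 6 genes of chemokines and sensing (12), 5 genes of apoptosis (12), 10 genes of androgen signalling and steroid response (17), 8 prostate secretory genes (19) and 14 skeletal muscle genes (18). Of the Notch pathway, 6 passed as higher and 3 as lower (10 and 10 without it). Hand2 had a difference of 0.34 in that fit (adjusted p = 0.949). Of the 183 called genes named here, 78 kept their direction but lost the call in that fit, among them Rest, Ccnd1, Egfr and Ezh2.

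**Figure D1:**
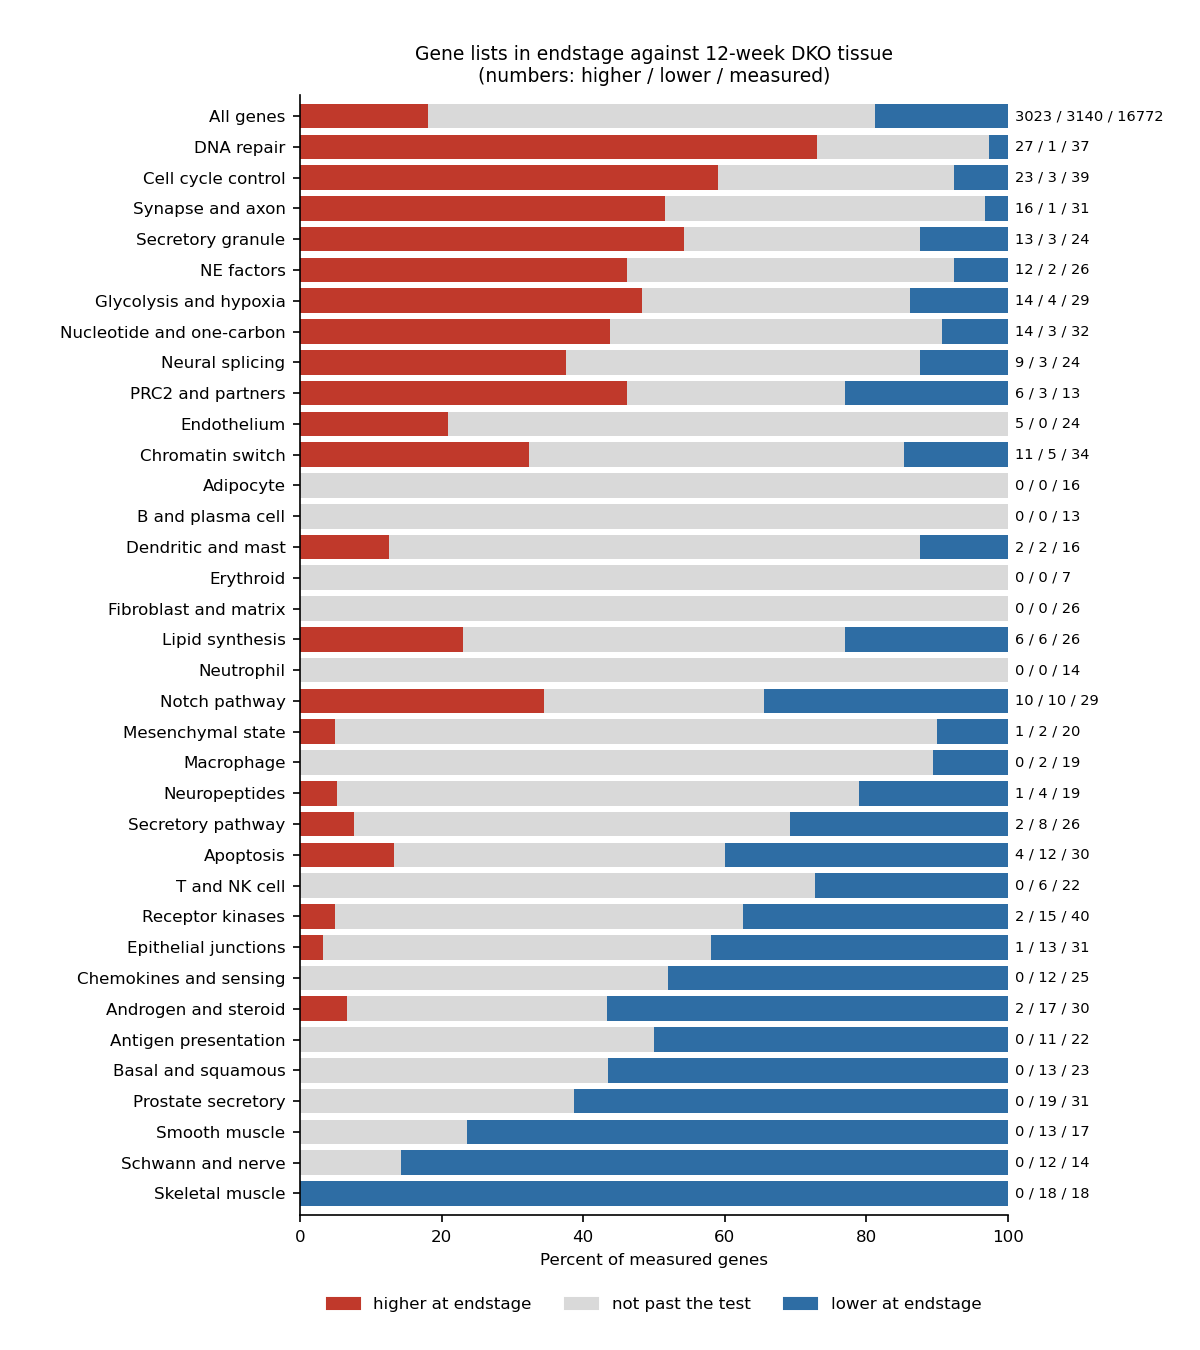
Share of the measured members of each gene list that was higher (red), lower (blue) or not past the test (grey) in endstage against 12-week DKO tissue, with all 16772 genes in the top bar; the x axis is percent of measured genes and the numbers at the right give members higher, members lower and members measured. DNA repair (27 of 37 higher) and cell cycle control (23 of 39 higher) lean to higher values, skeletal muscle (18 of 18 lower) and Schwann cell genes (12 of 14 lower) to lower values.

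Transcription factors of neuroendocrine and neuronal lineages rose as a subset of the list. Of 26 measured, 12 rose, 2 fell and 12 did not pass, beside 18% and 18.7% of all genes (median difference 2.15, or 1.77 with genes listed at 0 throughout an age put at a bound of 3 reads per library). Foxa2, a forkhead factor of endoderm and of neuroendocrine prostate cells (chromosome 2, 148042877 to 148046969, GRCm38), had 9.74, 9.97 and 10.13 at endstage and 2.81, 2.78, 3.40 and 0.00 at 12 weeks (difference 7.70 ± 1.06, adjusted p = 8.49e-07). The 3 endstage animals were close to each other, and 12-week replicate 4 was the lowest of its group.

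Insm1, a zinc finger repressor of endocrine differentiation, rose by 6.65 ± 1.38 (adjusted p = 0.00024), and Prox1, a homeobox factor, by 5.0 ± 0.96 (adjusted p = 9.24e-05). Insm1 did not pass in limma-voom with deposited scaling (adjusted p = 0.0537). Hes6, which opposes the Notch effector Hes1, had 11.95, 11.78 and 11.94 at endstage and 7.05 to 7.93 at 12 weeks (difference 4.35 ± 0.69, adjusted p = 6.39e-06). The zinc finger genes St18 and Myt1, relatives of each other, rose by 6.13 and 5.51. Sox2, a factor of stem and neural progenitor cells, rose by 2.46 ± 0.62 (adjusted p = 0.00187). Mycn rose at a low level, with 5.86, 4.74 and 5.46 at endstage and 2.01 to 3.53 at 12 weeks (adjusted p = 0.0142, or 0.0615 without endstage replicate 1 and 0.085 without 12-week replicates 1 and 4), while Mycl had 8.60 to 9.22 at endstage and 8.34 to 9.44 at 12 weeks (difference -0.04 ± 0.64, adjusted p = 0.97). Myc went the other way from Mycn, with 5.59, 5.43 and 5.91 at endstage and 8.38, 7.93, 7.84 and 8.51 at 12 weeks (difference -2.52 ± 0.60, adjusted p = 0.00105).

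Other factors that mark neuroendocrine tumours were not seen or did not pass. Neurod1 and Nkx2-2 were listed at 0 in all 7 animals. Pou3f2, a neural POU factor, had 0.92, 0.94 and 0.92 at endstage and 0.00 to 1.97 at 12 weeks, which is at most a few reads per library. Nkx2-1 had 0.00, 0.00 and 1.48 at endstage and 0.00 to 1.64 at 12 weeks. Onecut2 varied more within the 12-week group than between ages, with 9.91, 8.78 and 8.42 at endstage and 3.81, 9.11, 10.49 and 5.30 at 12 weeks (adjusted p = 0.483).

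The 2 members that fell also act in neural or sensory lineages. Isl1, a LIM homeobox gene of motor, sensory and autonomic neurons and of endocrine cells, had 3.31, 4.13 and 2.19 at endstage and 6.74 to 7.56 at 12 weeks (difference -3.91 ± 1.18, adjusted p = 0.00844). Atoh1, a proneural factor of hair cells and secretory gut cells, had 0.00, 0.94 and 0.00 at endstage and 2.81 to 4.86 at 12 weeks (adjusted p = 6.9e-05). The groups did not overlap for either gene, and Isl1 did not pass without endstage replicate 3 (adjusted p = 0.0533), which left 1 factor lower.

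Genes of the dense-core granule and of amine synthesis mostly rose, with 13 of 24 higher and 3 lower (median difference 2.57). The chromogranin Chga, a core protein of the granule, had 10.31, 10.43 and 11.39 at endstage and 4.01, 4.92, 5.12 and 1.74 at 12 weeks. Pcsk1, a protease that cuts prohormones, had 12.12, 12.00 and 12.57 at endstage and 4.53, 6.30, 6.64 and 4.01 at 12 weeks (difference 6.86 ± 1.30, adjusted p = 7.81e-05). Its relative Pcsk2 had 8.68, 7.01 and 0.00 at endstage and 3.66 to 5.37 at 12 weeks, so endstage replicate 3 stood apart and the difference did not pass (adjusted p = 0.787). Without the 12-week replicates 1 and 4, 5 members of the list were higher and 3 lower.

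Among genes of amine synthesis and transport, some rose and some fell. Tph1, the first enzyme of serotonin synthesis outside the brain (chromosome 7, 46644641 to 46672537), had 10.50, 11.70 and 10.80 at endstage and 4.33, 4.99, 4.72 and 1.11 at 12 weeks (difference 7.21 ± 1.89, adjusted p = 0.00258). Ddc, the decarboxylase shared by serotonin and dopamine synthesis (chromosome 11, 11814101 to 11898144), had 12.06, 12.53 and 12.52 at endstage and 4.91, 7.50, 7.91 and 1.11 at 12 weeks (difference 7.01 ± 1.21, adjusted p = 2.49e-05). Slc18a1, the amine transporter of endocrine granules, rose by 4.11 ± 0.98 (adjusted p = 0.00106), whereas Slc18a2, the neuronal amine transporter, did not pass (adjusted p = 0.866). Th, the first enzyme of catecholamine synthesis, was listed at 0 in all 3 endstage animals and had 4.59, 6.21, 6.99 and 1.11 at 12 weeks (adjusted p = 0.000519). Dbh, which makes noradrenaline, had 0.92, 0.00 and 0.00 at endstage and 4.53, 7.50, 8.11 and 3.0 at 12 weeks (adjusted p = 0.00115). With the identifier letters as a covariate, Th had a difference of -0.62 (adjusted p = 0.85) and Dbh of -2.61 (adjusted p = 0.444), and the granule list had 9 genes higher and 0 lower. In limma-voom with total and deposited scaling, Tph1 did not pass (7.51 and 7.31, adjusted p = 0.123 and 0.155).

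GABA synthesis genes were among the largest rises. Gad2, a glutamate decarboxylase, had 10.59, 9.97 and 5.49 at endstage and 0.00, 0.00, 2.06 and 0.00 at 12 weeks (difference 8.17 ± 1.45, adjusted p = 3.4e-05), the largest rise among the genes that the naming rule admits. Its relative Gad1, added after its values were seen, had the reverse order among the endstage animals, with 9.21, 8.57 and 12.47 at endstage and 1.74 to 3.33 at 12 weeks (difference 7.44 ± 2.19, adjusted p = 0.00682, or 0.0541 without endstage replicate 3). In limma-voom with total and deposited scaling, Gad1 did not pass (adjusted p = 0.0906 and 0.111). Otop1, a proton channel, had 11.54, 11.64 and 11.75 at endstage and 3.0 to 4.78 at 12 weeks, and Pkd2l1, a cation channel, had 12.09, 10.99 and 10.55 at endstage and 1.74 to 4.33 at 12 weeks. Both channels are known from the sour-sensing cells of taste buds. Gad2 averaged 3.90 at endstage and 3.02 at 12 weeks in DKO_EE and 9.52 at endstage and 2.44 at 12 weeks in DKO_EP, and its change in DKO was not past the test against either (adjusted p = 0.102 and 1). The other large rises named by rule were Kank4os, Dpp10, Clstn3, Prrt3, Dgkk, Cntnap5b and Foxa2, with differences of 7.70 to 8.08. Kank4os is an antisense transcript, and whether the authors counted by strand is not given in the sources used here.

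A promoter motif was searched in the granule list. The palindrome TGACGTCA, the cyclic AMP response element, was searched on both strands of the window from 250 bases before to 50 after each start in RefSeq (GRCm38.p6). It lay in 5 of 25 windows of the granule list and in 588 of 32851 windows of all genes (1.79%). Of the 5 genes, Chgb, Scg2 and Pcsk1 rose, Th fell and Slc18a2 did not pass. The Chgb call was lost without 12-week replicates 1 and 4 (adjusted p = 0.0906) and the Scg2 call without any 1 animal other than 12-week replicates 2 and 3 (0.0541 to 0.116). Chgb also did not pass in limma-voom with total and deposited scaling (adjusted p = 0.0612 and 0.071). The Th call was lost with the identifier letters as a covariate (adjusted p = 0.85). Stretches of 80 bases are shown for the 4 that changed, 5′ to 3′ on the strand of the gene, with the palindrome in capitals. They lie at chr2:132781534-132781613 (plus strand, Chgb), chr1:79440051-79440130 (minus strand, Scg2), chr13:75089743-75089822 (plus strand, Pcsk1) and chr7:142899997-142900076 (minus strand, Th). A match describes letters, not binding of a factor.
Chgb: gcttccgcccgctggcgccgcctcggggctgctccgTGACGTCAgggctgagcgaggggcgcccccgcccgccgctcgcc
Scg2: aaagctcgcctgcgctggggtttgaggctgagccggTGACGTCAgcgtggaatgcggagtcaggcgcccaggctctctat
Pcsk1: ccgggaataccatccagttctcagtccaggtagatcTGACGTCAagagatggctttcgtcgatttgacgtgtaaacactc
Th: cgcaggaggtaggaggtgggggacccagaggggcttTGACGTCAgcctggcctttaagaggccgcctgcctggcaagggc

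Neuropeptide genes did not rise as a group. Of 19 measured, 1 rose and 4 fell, beside 18% and 18.7% of all genes, so the share that fell was near that of all genes. A total of 14 did not pass, and 7 were at 0 throughout at least 1 age. Iapp, the islet amyloid peptide, was the member that rose, with 3.84, 1.91 and 3.31 at endstage and 0 in all 12-week animals (adjusted p = 0.014, or 0.0722 and 0.0506 without endstage replicate 1 or 3 and 0.0579 without 12-week replicates 1 and 4). Calca, which encodes calcitonin and its related peptide (chromosome 7, 114631478 to 114636357), differed widely among the endstage animals, with 3.65, 5.43 and 13.31 at endstage and 3.33, 3.29, 2.65 and 1.74 at 12 weeks (difference 4.71 ± 1.97, adjusted p = 0.057, or 0.0183 and 0.0475 without endstage replicate 1 or 2). The value of endstage replicate 3 alone was far above all others, and that library had the largest share of reads on the list, 0.149%, against 0.00256% and 0.00322% in endstage replicates 1 and 2. Grp, a growth-promoting peptide of neuroendocrine cells, had 3.31, 2.22 and 3.55 at endstage and 1.11 to 4.65 at 12 weeks (adjusted p = 0.902). Without endstage replicate 3, 0 peptide genes passed as higher and 2 as lower, 2 passed as lower without endstage replicate 1 or 12-week replicate 2, and 2 passed as higher without endstage replicate 2. Vip, a peptide of autonomic nerves, was listed at 0 in all endstage animals and had 6.07, 8.5, 7.96 and 3.79 at 12 weeks (adjusted p = 0.000353).

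Genes of synapses and axons rose for 16 of 31 members, and 1 fell (median difference 2.47). Snap25, part of the complex that fuses vesicles with the membrane, had 12.30, 11.94 and 12.40 at endstage and 6.29, 8.94, 8.66 and 4.11 at 12 weeks (difference 5.21 ± 1.11, adjusted p = 0.000312). Unc13a, which primes vesicles for release, rose by 5.20 ± 0.94. Syp, the vesicle protein synaptophysin, had 9.11, 9.39 and 10.49 at endstage and 5.05, 6.99, 7.46 and 3.52 at 12 weeks (difference 3.91 ± 1.16, adjusted p = 0.00749). Stmn2, a growth-cone protein of neurons, was the member that fell, with 3.43, 3.47 and 0.92 at endstage and 6.40, 8.58, 8.55 and 5.50 at 12 weeks (adjusted p = 0.00161). Without the 12-week replicates 1 and 4, 9 members were higher and 1 lower, and Syp did not pass (adjusted p = 0.181).

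Of the RNA-binding proteins of neural splicing, 9 of 24 were higher and 3 were lower (median difference 1.65). Celf3 rose by 5.44 ± 1.08, Srrm3 by 5.43 ± 1.22 and Elavl4 by 4.63 ± 1.18, all without overlap between the ages, and Elavl4 did not pass without 12-week replicates 1 and 4 (adjusted p = 0.0546). Srrm4, the splicing factor best known for switching the repressor REST to a truncated form, had 7.25, 6.33 and 6.59 at endstage and 4.76, 6.06, 5.12 and 2.50 at 12 weeks, which did not pass (difference 2.11 ± 1.03, adjusted p = 0.105). Rest itself, which silences neuronal genes in other tissues (chromosome 5, 77265491 to 77286432), fell, with 7.03, 6.87 and 5.91 at endstage and 9.29, 9.35, 9.54 and 9.41 at 12 weeks (difference -2.79 ± 0.69, adjusted p = 0.00146). Rbfox3, which encodes the nuclear antigen used to mark mature neurons, had 2.85, 0.94 and 2.19 at endstage and 2.77 to 6.73 at 12 weeks (adjusted p = 0.0408), a call lost without any 1 animal other than endstage replicate 1 and 12-week replicate 4 (0.0681 to 0.153). Without endstage replicate 2 or 12-week replicate 2, 1 member passed as lower. The epithelial splicing regulators Esrp1 and Esrp2 did not pass (differences 0.02 ± 0.41 and -0.08 ± 0.50).

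Schwann cell and nerve markers moved against the granule and synapse genes. Of 14 measured, 12 fell and none rose (median difference -2.43), and their summed share of reads was 0.0237% to 0.0276% at endstage, against 0.0461% to 0.0784% at 12 weeks. Sox10, the lineage factor of Schwann cells, was listed at 0 in all 3 endstage animals and had 5.68, 5.62, 5.21 and 3.19 at 12 weeks (adjusted p = 6.24e-05). Hand2, a factor of autonomic neurons that was added after its values were seen, was listed at 0 in all endstage animals and had 0.00 to 6.91 at 12 weeks (adjusted p = 0.0161). Hand2 did not pass without 12-week replicate 3 (adjusted p = 0.0845). At 12 weeks, replicates 2 and 3 were the 2 highest and replicate 4 the lowest for Th, Dbh and Snap25. The part of nerve tissue in the 12-week values of shared neuronal genes was not tested.

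**Figure D2:**
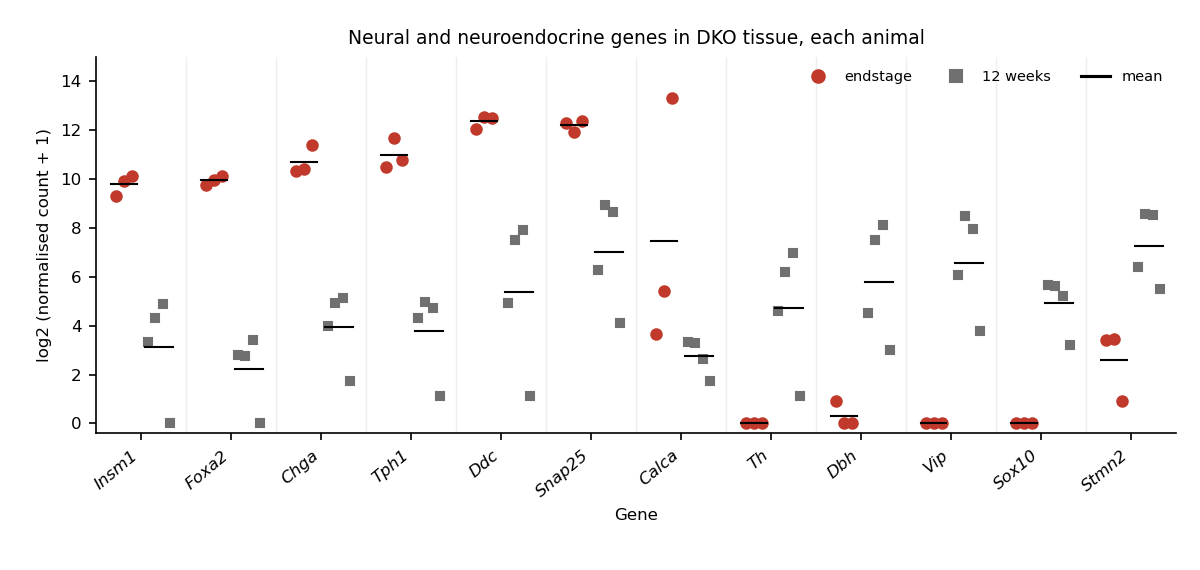
Log2 of normalised count plus 1 (y axis) of each animal for 12 neural and neuroendocrine genes, with 3 endstage animals (red circles) left of 4 animals aged 12 weeks (grey squares) for each gene and a bar at each mean; levels are not compared between genes. Insm1, Foxa2, Chga, Tph1 and Ddc lie far above the 12-week animals in all endstage animals, while Th, Vip and Sox10 are at 0 there, and Calca splits the endstage group.

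Notch pathway genes moved in both directions. Notch receptors, freed by ligands on neighbouring cells, switch on repressors of the Hes and Hey families, which hold down proneural factors. Of 29 members, 10 rose and 10 fell. The ligands Dll1, Dll3 and Dll4 rose, by 2.63 ± 0.45, 2.70 ± 0.79 and 2.29 ± 0.61. Without 12-week replicates 1 and 4, Dll3 and Dll4 did not pass (adjusted p = 0.171 and 0.0656). Dll3 also did not pass with the identifier letters as a covariate (0.0572). Jag1, another ligand, had 8.08, 8.26 and 7.18 at endstage and 8.01 to 9.03 at 12 weeks (adjusted p = 0.352).

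Of the 4 receptors, 3 fell. With the identifier letters as a covariate, Notch1, Notch2 and Notch3 did not pass (adjusted p = 0.103, 0.0859 and 0.527). Notch1 (chromosome 2, 26457903 to 26516663) had 8.26, 8.09 and 6.89 at endstage and 10.55, 10.61, 10.75 and 10.14 at 12 weeks (difference -2.76 ± 0.69, adjusted p = 0.00159). Notch2 had 9.60, 9.19 and 9.55 at endstage and 11.46 to 11.77 at 12 weeks (difference -2.19 ± 0.52, adjusted p = 0.000974). Notch3 fell by 1.67 ± 0.58 (adjusted p = 0.0216), with overlapping animals, and did not pass without endstage replicate 3 or 12-week replicate 3 (0.238 and 0.0622). Notch4, known from blood vessels, did not pass (1.34 ± 0.57, adjusted p = 0.0635).

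Among modifiers and targets, the fringe enzymes Lfng and Mfng, which tune the response of a receptor to its ligands, rose by 2.43 ± 0.52 and 3.37 ± 0.49, and Rfng fell by 0.88 ± 0.21. The coactivators Maml1, Maml2 and Maml3 fell by 1.14, 1.81 and 0.82, while Rbpj, the DNA-binding partner of the receptors, did not pass (-0.41 ± 0.23, adjusted p = 0.152). Hes1, a repressor and target of the receptors, had 6.16, 7.0 and 5.99 at endstage and 8.59, 8.53, 9.09 and 7.86 at 12 weeks (difference -2.14 ± 0.48, adjusted p = 0.000553). Hey1, a related target, went the other way, with 6.87, 6.73 and 5.93 at endstage and 3.90 to 4.65 at 12 weeks (difference 2.28 ± 0.58, adjusted p = 0.00198). Without the 12-week replicates 1 and 4, 6 members were higher and 9 lower. Maml3 did not pass without them (adjusted p = 0.075) or without any 1 animal other than endstage replicate 1 and 12-week replicate 4 (0.0544 to 0.166). With the identifier letters as a covariate, Hes1 (adjusted p = 0.241), Hey1 (0.0662), Lfng (0.0647) and Maml1 to Maml3 (0.227, 0.143 and 0.487) did not pass.

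**Figure D3:**
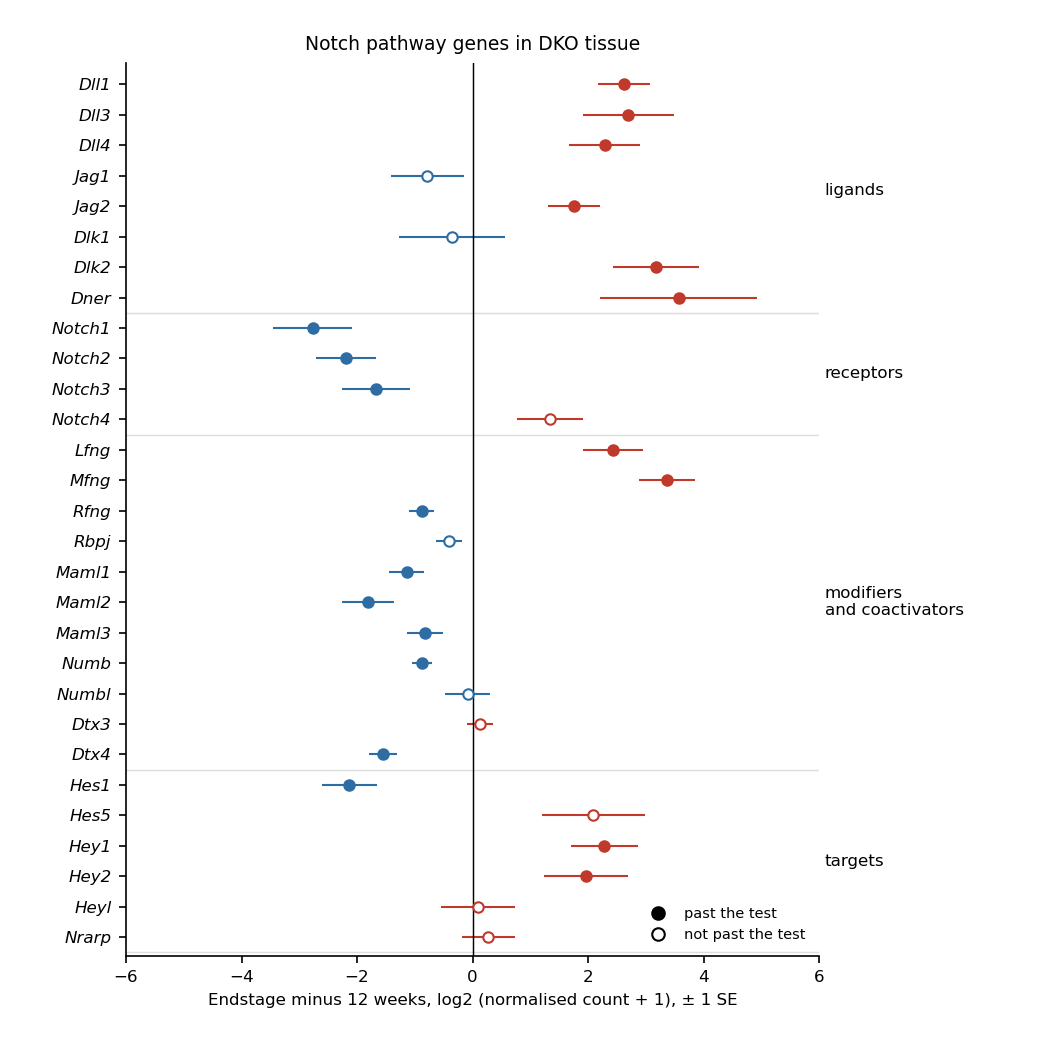
Difference of endstage minus 12-week DKO tissue on the log2 scale (x axis, bars are ± 1 SE) for 29 genes of the Notch pathway, grouped from top to bottom as ligands, receptors, modifiers and coactivators, and targets; filled points passed the test at an adjusted p under 0.05 and open points did not. Delta ligands and Lfng lie to the right of 0, Notch1 to Notch3, the Maml coactivators and Hes1 to the left.

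Cell cycle control genes rose for 23 of 39 members, and 3 fell (median difference 1.48). RB1 is known to hold E2F factors in check until cyclin D kinases release them, and cyclin E is a known E2F target. Ccne2, the cyclin that drives entry into replication (chromosome 4, 11191351 to 11204779), had 10.54, 10.44 and 10.51 at endstage and 6.69, 6.87, 6.23 and 6.48 at 12 weeks (difference 3.93 ± 0.54, adjusted p = 8.6e-07). Ccne1 rose by 2.80 ± 0.31 (adjusted p = 4.81e-08). The activators E2f1 and E2f2 rose by 2.26 ± 0.39 and 3.01 ± 0.51, and the repressors E2f7 and E2f8 by 2.95 ± 0.52 and 2.38 ± 0.41. E2f3, E2f5 and E2f6 did not pass, with differences of 0.04 to 0.05.

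The D cyclins did not rise. Ccnd1 had 8.35, 7.86 and 6.58 at endstage and 10.27, 10.29, 10.20 and 10.28 at 12 weeks (difference -2.66 ± 0.72, adjusted p = 0.00341). Ccnd3 fell by 1.52 ± 0.32 (adjusted p = 0.000283), and Ccnd2 had 8.35, 8.37 and 9.20 at endstage and 8.77 to 10.70 at 12 weeks (adjusted p = 0.16). Among the inhibitors of their kinases, Cdkn2c and Cdkn2d rose by 2.54 ± 0.38 and 3.09 ± 0.37. Cdkn2a, which encodes 2 tumour suppressors and is known to rise when RB1 is lost, split the endstage group, with 8.65, 4.13 and 3.03 at endstage and 5.57 to 6.79 at 12 weeks (adjusted p = 0.535). Cdkn1b and Cdkn1c, inhibitors of the later kinases, rose by 1.24 ± 0.28 and 1.48 ± 0.43, and Cdkn1c did not pass without endstage replicate 1 (adjusted p = 0.0873).

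DNA repair and checkpoint genes had the largest count of rises of the lists used, with 27 of 37 higher and 1 lower (median difference 1.18). Polq, the polymerase of microhomology-mediated end joining, had 8.85, 8.64 and 8.91 at endstage and 5.79, 6.03, 5.33 and 6.22 at 12 weeks (difference 2.96 ± 0.38, adjusted p = 3.2e-07). Brca1, which acts in homologous recombination, rose by 2.30 ± 0.31, and Fancd2 of the crosslink repair pathway by 2.22 ± 0.26. Lig4, Ercc1 and Chek2 did not pass, and Xpc, which finds damaged bases, fell by 0.75 ± 0.19 (adjusted p = 0.0021). Nucleotide and one-carbon genes rose for 14 of 32 members, and 3 fell. Rrm1, a subunit of ribonucleotide reductase, had the lowest adjusted p of that list (1.83 ± 0.20, adjusted p = 4.22e-08). Mthfd2 and Aldh1l2, mitochondrial enzymes of folate metabolism, rose by 2.48 ± 0.52 and 3.01 ± 0.71. Without endstage replicate 2 or 3, 1 gene of the list passed as lower.

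The letters TTTCCCGC, a form of the E2F site, were searched in the same promoter windows on both strands. They lay in 6 of 34 windows of the DNA repair list, in 4 of 35 windows of the cell cycle list and in 351 of 32851 windows of all genes (1.07%). Of these 10 genes, Bard1, Brca2, Rad51c, Msh6, Xrcc6, E2f7 and Cdk2 rose, and Chek2, Cdkn2a and E2f3 did not pass. The Xrcc6 call was lost without any 1 animal other than 12-week replicate 4 (adjusted p = 0.0522 to 0.0954). TTTGAA, a short element of genes used in division, lay in 10 of 35 windows of the cell cycle list and in 17.9% of all windows. Stretches are shown for 4 genes with the first motif and for Cdk1, which holds the second motif at 2 places, with the matches in capitals (either strand). They lie at chr10:110745205-110745284 (plus strand, E2f7), chr10:128705148-128705227 (minus strand, Cdk2), chr1:71103138-71103217 (minus strand, Bard1), chr11:87404952-87405031 (minus strand, Rad51c) and chr10:69352913-69352992 (minus strand, Cdk1) of GRCm38.p6.
E2f7: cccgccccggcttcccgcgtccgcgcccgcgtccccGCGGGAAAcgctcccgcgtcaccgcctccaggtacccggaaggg
Cdk2: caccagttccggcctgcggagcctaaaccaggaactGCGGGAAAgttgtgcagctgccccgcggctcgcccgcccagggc
Bard1: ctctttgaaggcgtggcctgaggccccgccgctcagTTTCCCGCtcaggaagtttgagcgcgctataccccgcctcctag
Rad51c: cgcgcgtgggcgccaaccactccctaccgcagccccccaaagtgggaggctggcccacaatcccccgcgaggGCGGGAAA
Cdk1: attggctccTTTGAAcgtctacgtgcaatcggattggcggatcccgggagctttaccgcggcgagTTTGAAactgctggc

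Genes of androgen signalling and steroid response mostly fell, with 17 of 30 members lower and 2 higher (median difference -1.87). Foxa1, a forkhead factor that opens chromatin, had 9.0, 9.40 and 9.17 at endstage and 11.26 to 11.71 at 12 weeks (difference -2.33 ± 0.30, adjusted p = 2.72e-07). Endstage replicate 3 had the lowest value of its group for Tmprss2, an androgen-responsive protease, with 7.93, 8.79 and 3.18 at endstage and 11.41 to 12.74 at 12 weeks (difference -5.53 ± 1.19).

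Steroid receptors moved in both directions. Nr3c1, the glucocorticoid receptor, rose by 0.76 ± 0.18 (adjusted p = 0.00112). Pgr, the progesterone receptor, had 8.08, 7.91 and 4.24 at endstage and 3.71, 3.49, 4.66 and 2.50 at 12 weeks (difference 3.15 ± 0.82, adjusted p = 0.0024), and endstage replicate 3 lay within the 12-week range. Esr1 and Esr2, the oestrogen receptors, fell by 2.54 ± 0.70 and 4.26 ± 0.85. Prostate secretory genes fell for 19 of 31 members and none rose (median difference -4.21, or -3.45 with the bound of 3 reads). Seminal vesicle transcripts among them varied between the 12-week animals, as for Svs4 with 4.09, 5.20 and 1.88 at endstage and 11.97, 5.75, 12.78 and 8.26 at 12 weeks. Svs4 did not pass without endstage replicate 3 (adjusted p = 0.0948), 12-week replicate 1 or 3 (0.059 and 0.0713) or 12-week replicates 1 and 4 together (0.087).

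Epithelial genes did not move together. Of 31 genes of junctions and simple keratins, 1 rose, 13 fell and 17 did not pass. Krt7, a keratin of ducts, was the member that rose, with 12.62, 13.20 and 12.96 at endstage and 9.85, 10.29, 10.88 and 10.68 at 12 weeks (difference 2.50 ± 0.49, adjusted p = 0.000136). Krt18, the partner of Krt8, did not pass (-0.29 ± 0.34, adjusted p = 0.537). Cdh1, the epithelial cadherin, fell to 11.59, 11.91 and 11.09 at endstage, against 13.60, 13.58, 13.83 and 13.71 at 12 weeks (difference -2.15 ± 0.36, adjusted p = 1.62e-05), and Cdh2, the neural cadherin, rose by 3.97 ± 0.67 (adjusted p = 1.62e-05). Vim, Zeb1 and Zeb2, known from mesenchymal states, did not pass, with differences of -0.17 ± 0.69, -0.67 ± 0.48 and -0.39 ± 0.55.

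Basal and squamous genes fell for 13 of 23 members and none rose (median difference -3.25). Trp63, the lineage factor of basal cells, had 4.01, 4.05 and 1.88 at endstage and 8.61, 8.39, 8.14 and 6.56 at 12 weeks (difference -4.61 ± 1.60, adjusted p = 0.021). Krt5, a basal keratin, had 6.87, 4.68 and 0.00 at endstage and 9.68, 10.15, 10.25 and 7.21 at 12 weeks, which did not pass (difference -5.47 ± 2.36, adjusted p = 0.0653, or 0.0426 without endstage replicate 1). Sox9, a factor of ducts and progenitors, fell to 4.36, 5.43 and 2.45 at endstage, against 10.32 to 10.91 at 12 weeks (adjusted p = 6.21e-06). Without endstage replicate 3, 3 basal genes passed as lower, and Trp63 was not among them (adjusted p = 0.105). It also did not pass without 12-week replicates 1 and 4 (0.0538).

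Endstage replicate 3 stood apart in several lists. It had the lowest values of its group for the epithelial genes Krt5, Krt14, Krt15, Ltf and Mmp7, at 0.00, 0.00, 0.00, 1.88 and 0.92. Endstage replicates 1 and 2 had 10.43 and 11.99 for Ltf, an iron-binding secretory protein, and 8.87 and 9.92 for Mmp7, a protease of glandular epithelium. Fibroblast and matrix genes took 0.20% of the reads of endstage replicate 3, against 1.03% and 1.10% of endstage replicates 1 and 2 and 0.423% to 0.794% of the 12-week libraries. The library was not shallower than the others of its group, and its correlation with them across genes (Pearson r = 0.94 with each) was a little below that between the other pair (0.962). Without it, 2461 genes were higher and 2378 lower, and Krt15 and Mmp7 did not pass (adjusted p = 0.182 and 0.281). Krt15 also did not pass without endstage replicate 2 (0.0612) or 12-week replicate 1, 2 or 3 (0.0585, 0.0635 and 0.0646). In limma-voom with total and deposited scaling, its adjusted p was 0.0623 and 0.0666.

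**Figure D4:**
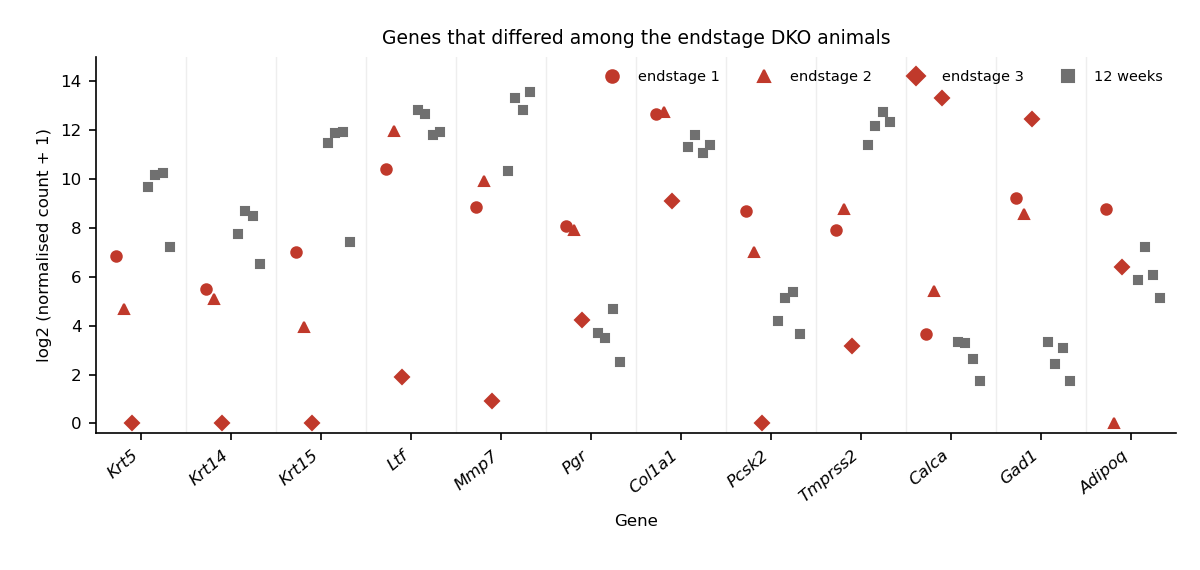
Log2 of normalised count plus 1 (y axis) of each animal for 12 genes that differed among the endstage animals; endstage replicates 1, 2 and 3 (red circle, triangle and diamond) stand left of the 4 animals aged 12 weeks (grey squares). Endstage replicate 3 is the lowest endstage animal for Krt5, Krt14, Krt15, Ltf, Mmp7, Pgr, Col1a1, Pcsk2 and Tmprss2 and the highest for Calca and Gad1, and endstage replicate 2 is at 0 for Adipoq.

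Receptor tyrosine kinases fell for 15 of 40 members, and 2 rose (median difference -1.23). The 2 that rose were Kit, the stem cell factor receptor, with 10.96, 11.14 and 11.23 at endstage and 8.14 to 9.12 at 12 weeks (difference 2.48 ± 0.50, adjusted p = 0.000155), and Ephb6, an ephrin receptor (2.06 ± 0.53, adjusted p = 0.002). Ret, the receptor of glial-derived ligands, had 10.41, 10.34 and 9.70 at endstage and 7.23 to 9.54 at 12 weeks (adjusted p = 0.158). All 4 receptors of the epidermal growth factor family fell, with Egfr lower by 2.05 ± 0.58, Erbb2 by 4.97 ± 0.99, Erbb3 by 2.78 ± 0.45 and Erbb4 by 3.94 ± 1.37. Erbb4 did not pass without endstage replicate 3 (adjusted p = 0.108), 12-week replicate 1 (0.0832) or 12-week replicates 1 and 4 together (0.108). Fgfr3 fell by 5.08 ± 1.16, Igf1r by 3.08 ± 0.81 and Met, the hepatocyte growth factor receptor, by 2.55 ± 0.77, with Met not past the test without endstage replicate 1 (adjusted p = 0.0573). The list had 9 lower genes without endstage replicate 3.

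Apoptosis genes fell for 12 of 30 members and rose for 4, beside 18.7% and 18% of all genes, on both sides of the pathway. The share that rose was below that of all genes, and 2 were higher without endstage replicate 1. The survival genes Bcl2, Bcl2l1 and Mcl1 fell by 1.96 ± 0.40, 1.01 ± 0.25 and 0.90 ± 0.26, and the executioner or trigger genes Bak1, Casp6 and Bmf by 1.86 ± 0.40, 2.05 ± 0.39 and 1.47 ± 0.37. Tnfsf10, the death ligand TRAIL, had 7.56, 7.84 and 6.57 at endstage and 10.84 to 11.94 at 12 weeks (difference -4.09 ± 0.68, adjusted p = 1.4e-05). Birc5, a survival protein that also acts in division, rose by 2.18 ± 0.33 (adjusted p = 4.16e-06). Bax did not pass (adjusted p = 0.051), and it passed as higher without endstage replicate 3 or 12-week replicate 2 (0.0176 and 0.0433). It also passed with the filter, the offset of 10, quantile normalisation, array weights and limma-voom with either scaling (adjusted p = 0.00506 to 0.0474). The other alternatives that have a test did not call it.

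Chromatin genes rose for 11 of 34 members and fell for 5, beside 18% and 18.7% of all genes. The share that fell was below that of all genes. Actl6b, the subunit that replaces Actl6a in the neuronal form of the BAF remodeller, had 5.96, 5.94 and 5.46 at endstage and 0.00, 1.97, 2.39 and 0.00 at 12 weeks (difference 4.70 ± 1.03, adjusted p = 0.000451). Actl6a rose too, by 0.68 ± 0.19 (adjusted p = 0.00484). Among the other subunits, Arid1b fell by 1.60 ± 0.16 (adjusted p = 5.25e-09), Smarca2 by 1.62 ± 0.34 and Smarcd3 by 2.25 ± 0.56, while Smarca4 did not pass (0.01 ± 0.20). The DNA methyltransferases Dnmt1, Dnmt3a and Dnmt3b rose by 1.55 ± 0.29, 1.73 ± 0.42 and 1.56 ± 0.35. In the Polycomb complex that silences genes through a histone mark, the catalytic subunit Ezh2 had 9.88, 9.48 and 9.47 at endstage and 8.19 to 8.69 at 12 weeks (difference 1.21 ± 0.32, adjusted p = 0.00302). Of its partners, Phf19, an accessory subunit, rose most, with 8.05, 8.13 and 8.35 at endstage and 4.66 to 5.43 at 12 weeks (difference 3.12 ± 0.62, adjusted p = 0.000144). Kdm6b, which removes the mark that the complex writes, fell by 1.90 ± 0.31 (adjusted p = 1.24e-05).

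Glycolysis and hypoxia genes rose for 14 of 29 members, and 4 fell (median difference 0.82), beside 18% and 18.7% of all genes. The share that fell was below that of all genes. Bnip3, a hypoxia target, had 11.85, 10.78 and 12.22 at endstage and 8.77 to 9.36 at 12 weeks (difference 2.60 ± 0.48, adjusted p = 5.98e-05), and Aldoc, the neural aldolase, rose by 2.75 ± 0.56. Endstage replicate 2 was the lowest of its group for Bnip3, Ankrd37, Pdk1 and Pgk1. The hypoxia genes Vegfa, Car9 and Slc2a1 did not pass (adjusted p = 0.563, 0.464 and 0.495). Of the 4 that fell, Pfkm is the muscle form of phosphofructokinase and was highest in 12-week replicates 1 and 4, with 7.0, 6.80 and 5.33 at endstage and 11.54, 7.97, 8.55 and 10.70 at 12 weeks. Without these 2 animals, 2 genes of the list passed as lower, and Pfkm did not (adjusted p = 0.0664). Of 26 lipid synthesis genes, 6 were higher, a share near the 18% of all genes, including the fatty acid elongase Elovl6 (2.45 ± 0.40, adjusted p = 9.31e-06), and 6 were lower, near the 18.7% of all genes. Leaving out 1 animal other than endstage replicate 3 or 12-week replicate 2 left 1 to 3 lipid genes higher, 3 passed as lower without endstage replicate 3, and without the 12-week replicates 1 and 4, 2 passed in each direction. The largest falls named by rule included genes of glandular epithelium. Myo5c, a myosin of secretory epithelia, had 5.96, 7.27 and 0.00 at endstage and 11.43 to 12.23 at 12 weeks, and Mme, the membrane protease neprilysin, had 4.84, 3.06 and 2.45 at endstage and 9.48 to 12.22 at 12 weeks. Upk1b, Cxcl15, Cyp2b10 and the near-identical pair Gsdmc2 and Gsdmc3 fell by 7.10 to 8.24, and the muscle gene Mybpc1 by 8.20. Gsdmc2 did not pass without endstage replicate 3 (adjusted p = 0.09). In the secretory pathway, 2 of 26 rose and 8 fell. Without the 12-week replicates 1 and 4, 1 was higher and 4 lower, without endstage replicate 1 it was 1 and 5, and without any other animal except 12-week replicates 1 and 4 a single gene was higher. Agr2, a disulfide isomerase of mucus-secreting cells, had 2.19, 4.40 and 0.00 at endstage and 8.78 to 10.14 at 12 weeks.

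Of 24 blood vessel genes, 5 rose and none fell, a count of rises near the 18% of all genes. Apln, a peptide of sprouting vessel tips, had 7.90, 8.14 and 9.34 at endstage and 2.81, 3.67, 3.53 and 2.50 at 12 weeks (difference 5.33 ± 0.90, adjusted p = 1.74e-05). Pgf, a growth factor of the VEGF family, rose by 4.11 ± 0.68, Angpt2, a ligand that loosens vessels, by 2.78 ± 0.51 and Vwf, a clotting protein of endothelium, by 2.37 ± 0.58. The fifth was Prox1, which is also a neuroendocrine factor. Pecam1 and Cdh5, adhesion proteins of all endothelium, did not pass (0.48 ± 0.62 and 0.61 ± 0.63).

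Macrophage, neutrophil and B cell lists showed few or no calls. Of 19 macrophage genes, 2 fell, beside 18.7% of all genes, and Adgre1 had 9.11, 8.90 and 8.87 at endstage and 8.02 to 9.33 at 12 weeks (adjusted p = 0.689). The 2 that fell, Ccr2 and Ly6c2, are known from recruited monocytes, and they fell by 2.16 ± 0.87 and 2.74 ± 0.86. Ccr2 did not pass without any 1 animal other than endstage replicate 2 and 12-week replicate 3 (adjusted p = 0.0668 to 0.265), nor Ly6c2 without endstage replicate 3 (0.0791). Without endstage replicate 3, or without 12-week replicates 1 and 4, 0 macrophage genes passed, and 1 passed without endstage replicate 1 or any of the 12-week replicates 1, 2 and 4. None of 14 neutrophil genes passed in limma (1 at an unadjusted p under 0.05, and 1 called by limma-voom), with 2 lower in the 7 DKO animals alone, 3 with array weights and 1 without endstage replicate 1 or 2. None of 13 B cell genes passed in limma or limma-voom or at an unadjusted p under 0.05, with 1 higher without 12-week replicate 1 and 1 lower without endstage replicate 1. At an adjusted p under 0.05, 6 of 22 T and natural killer cell genes fell, beside 18.7% of all genes. They included Ncr1, a receptor of natural killer cells, with 0.92, 0.00 and 1.48 at endstage and 2.88 to 4.76 at 12 weeks (adjusted p = 1.4e-05). A total of 3 of these genes passed without endstage replicate 3, and without the 12-week replicates 1 and 4, 2 passed. Cd8a, of cytotoxic T cells, did not pass (-0.80 ± 0.81, adjusted p = 0.47). B cell genes were high in endstage replicate 1 and 12-week replicate 1, as for Ms4a1 with 6.68, 2.89 and 0.00 at endstage and 6.74, 4.10, 2.39 and 4.53 at 12 weeks.

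Chemokine and viral sensing genes fell for 12 of 25 members, and antigen presentation genes for 11 of 22, with none higher in either list. Cx3cl1, a membrane-bound chemokine, had 6.52, 6.93 and 4.02 at endstage and 9.66 to 10.17 at 12 weeks (difference -4.09 ± 0.57, adjusted p = 8.98e-07). Tlr3, a sensor of double-stranded RNA, fell by 2.53 ± 0.43 (adjusted p = 2.01e-05), and Cxcl10, which attracts T cells, by 3.16 ± 0.74 (adjusted p = 0.000825). Nlrc5, the activator of class I genes, had 8.08, 7.38 and 7.43 at endstage and 10.27, 8.52, 8.89 and 9.30 at 12 weeks (adjusted p = 0.035), while Ciita, its class II counterpart, did not pass (adjusted p = 0.129, or 0.0407 without endstage replicate 1). The Nlrc5 call was lost without endstage replicate 2 or 3 (adjusted p = 0.103 and 0.102), 12-week replicate 1 or 4 (0.127 and 0.059) or both of the 12-week animals (0.283). Without the 12-week replicates 1 and 4, 6 chemokine and sensing genes and 5 antigen presentation genes passed as lower. Without endstage replicate 3, 12-week replicate 1 or 12-week replicate 4 alone, 7 antigen presentation genes passed.

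Stroma was represented unevenly. None of 26 fibroblast and matrix genes passed in limma, with 2 at an unadjusted p under 0.05 and 1 to 2 called by limma-voom on recovered reads. Other limma settings called some, with 1 higher and 4 lower in the 7 DKO animals alone, 2 and 2 with array weights, 1 lower with the filter, the offset of 10 or quantile normalisation, and 1 higher without endstage replicate 3 or 12-week replicate 2. Smooth muscle genes fell for 13 of 17 members (median difference -2.49). Pln, a calcium pump regulator, was listed at 0 in all endstage animals, and 12-week replicate 4 was the lowest of its group for Myh11, Acta2 and Cnn1. Myh11, the smooth muscle myosin, had 8.55, 8.56 and 6.65 at endstage and 11.95, 12.55, 12.31 and 8.94 at 12 weeks (difference -3.52 ± 1.0, adjusted p = 0.00512). Leaving out endstage replicate 3 gave 6 lower smooth muscle genes, and without endstage replicate 1 or any of the 12-week replicates 1, 2 and 3, 7 passed. None of 16 fat cell genes passed in limma or in limma-voom (1 at an unadjusted p under 0.05), but 2 passed as lower without endstage replicate 1, and 1 with the offset of 10, with array weights, without 12-week replicate 4 or without 12-week replicates 1 and 4. Adipoq had 8.79, 0.00 and 6.41 at endstage and 5.12 to 7.22 at 12 weeks.

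The change with age in DKO mice was set against that in the other genotypes by a test of the difference of the changes. Of the 6163 genes called in DKO, 4802 were called in the same direction in DKO_EE, which is 77.9% of the DKO calls and 56.6% of the 8483 calls in DKO_EE (50.6% of all genes were called there). In DKO_EP, 5051 were called in the same direction, which is 82% of the DKO calls and 68.2% of the 7411 calls in DKO_EP (44.2% of all genes). The change itself differed from that of DKO_EE for 21 genes (0.125% of all genes) and from that of DKO_EP for 1 gene (0.00596%), with 1757 and 427 genes at an unadjusted p under 0.05. Without 12-week replicate 4 these were 42 and 3 genes, and without 12-week replicates 1 and 4 they were 24 and 7. With the identifier letters as a covariate, 0 genes passed against either genotype (700 and 188 at an unadjusted p under 0.05). All 12-week animals of DKO_EE and DKO_EP have the DKOE letters, against 1 of the 4 DKO animals of that age, so letters and genotype go together at 12 weeks and the part of the letters in these differences was not tested apart. Of the 21 genes, 5 had a higher change in DKO and 16 a lower one.

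Lhx2, a LIM homeobox factor of brain and hair follicle (chromosome 2, 38339281 to 38369733), had a higher change in DKO than in DKO_EE. It had 6.12, 4.27 and 4.60 at endstage and 2.33, 0.00, 0.00 and 0.00 at 12 weeks in DKO, and averaged 0.23 at endstage and 1.78 at 12 weeks in DKO_EE (difference of the changes 5.96, adjusted p = 0.000601). In DKO_EP it averaged 4.73 at endstage and 0.93 at 12 weeks, and the difference from DKO was 0.61 (adjusted p = 1). Marcks, a membrane substrate of protein kinase C, averaged 11.49 at endstage and 10.82 at 12 weeks in DKO, against 10.12 at endstage and 11.28 at 12 weeks in DKO_EE (adjusted p = 0.00144). Ghr, the growth hormone receptor, rose in DKO by 0.84 ± 0.28, and its change was higher than in DKO_EE by 1.66 (adjusted p = 0.0425). The DKO change of Ghr alone did not pass without endstage replicate 1 or 3 (0.07 and 0.081), 12-week replicate 3 (0.0594) or 12-week replicates 1 and 4 (0.0505).

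Among the genes with a lower change in DKO were Fign, Rora, Nedd4l, Trp53bp2 and Rimklb. Rora, a nuclear receptor that acts in the circadian clock, had 7.89, 7.22 and 7.88 at endstage and 8.86 to 9.45 at 12 weeks in DKO, and averaged 9.42 at endstage and 8.87 at 12 weeks in DKO_EE (difference of the changes -2.11, adjusted p = 0.0021). Fign, an ATPase that severs microtubules, had 4.65, 3.21 and 3.18 at endstage and 5.38 to 6.31 at 12 weeks in DKO, and averaged 7.75 at endstage and 5.95 at 12 weeks in DKO_EE (adjusted p = 0.000627). The prostate genes Pbsn and Msmb were at 0 at endstage in DKO, DKO_EE and DKO_EP, and averaged 6.65 and 6.60 at 12 weeks in DKO but 0.81 and 1.31 at 12 weeks in DKO_EE. In DKO, the 12-week animals with T letters had 7.52 to 7.95 for Pbsn and 7.33 to 7.80 for Msmb, and the 1 with DKOE letters had 3.37 and 3.90. The muscle genes Mybpc1, Myom2 and Mstn were also in this group, and were highest in replicates 1 and 4 among the 12-week DKO animals. In DKO_EE, Mybpc1 averaged 7.45 at endstage and 3.69 at 12 weeks, and Myom2 averaged 5.07 and 1.57. The difference for these genes thus holds a rise in DKO_EE as well as a fall in DKO. Mstn averaged 0.37 and 0 in DKO_EE. None of the genes of the neuroendocrine factor list other than Lhx2, and none of the granule, synapse, cell cycle or Notch lists, passed this test.

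The gene that differed from DKO_EP was Lars2, a mitochondrial leucyl-tRNA synthetase. It had 9.77, 9.44 and 10.80 at endstage and 7.44 to 10.59 at 12 weeks in DKO, and averaged 20.48 at endstage and 7.39 at 12 weeks in DKO_EP (difference of the changes -12.06, adjusted p = 0.00091). It also differed from DKO_EE, where it averaged 16.69 at endstage and 7.82 at 12 weeks. Lars2 took 0.00993% to 0.0258% of the reads of the DKO endstage libraries. It took 14.22% to 21.55% of the reads of the DKO_EP endstage libraries and 0.00853% to 35.3% of those of DKO_EE. What lies behind these shares was not tested, nor was their part in the other comparisons between genotypes.

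**Figure D5:**
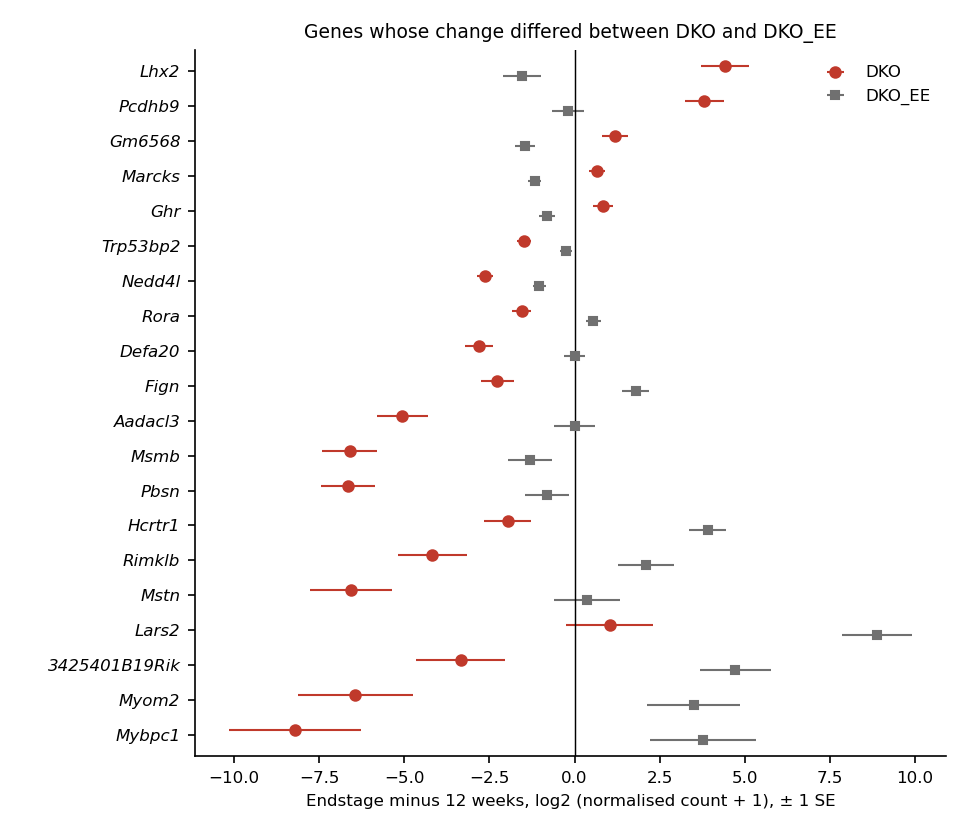
Mean change from 12 weeks to endstage on the log2 scale in DKO (red circles) and in DKO_EE (grey squares) for 20 of the 21 genes whose changes differed at an adjusted p under 0.05, with bars of ± 1 SE; genes run down the page from the highest to the lowest difference of the changes. Lhx2, Pcdhb9, Gm6568, Marcks and Ghr have the higher change in DKO, and the other 15 have the lower one.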

How the data were processed

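Bulk RNA sequencing of mouse prostate tissue was analysed from a table of log2 values (log2 of a normalised count plus 1) that the authors deposited. The tools DESeq2, limma, RSEM, STAR and FastQC and the builds mm10 and GRCm38 are named per the submitters' processing notes. Their roles and the counting strand are not given in the sources used here. Every value in each library came out as a whole number of reads (100% of values within 0.05 of a read) once divided by the worth of 1 read, so reads were recovered for limma-voom and for shares of reads. In the table, 2 columns belong to no sample analysed here and were not used.

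The main test was limma 3.58.1 (R 4.3.3) with a mean-variance trend on the deposited values, with all 11 groups in 1 fit, 1 value per animal (pieces averaged) and Benjamini-Hochberg adjustment over 16772 genes, called at an adjusted p under 0.05. It was tested on simulated data. An SE is that of the fit. The labels give separate animal identifiers and say no more about how the animals relate. The p-values rest on the spread among animals within groups, pooled over all 11 groups (48 animals), part of which may be technical.

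Results for some genes are not reported here, though lists count them. Members and gene lists were chosen with earlier results of these data known, and lists are described by counts. Named genes are, by rule, up to 10 of the largest non-overlapping differences per direction among called genes (leaving out unnamed models, receptor segments and the lowest 25% by mean), up to 4 members per list with the smallest adjusted p, and a fixed set; others were added where they belong to a described pathway. Gene positions are those of GENCODE M21, matched by symbol for 16750 genes. Near-identical genes (Gsdmc2 and Gsdmc3, the Svs family) and overlapping or antisense genes may share reads.

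Alternatives were a filter on the lowest 25% of genes, an offset of 10, quantile normalisation, limma-voom with either scaling, the 7 DKO animals alone, array weights, identifier letters as a covariate, the first library of each animal, the 2 DKOE animals alone, and leaving out animals.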

Additional observations from a re-analysis of the deposited data

Results flagged for a closer look

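The change from 12 weeks to endstage was compared between DKO and DKO_EE for all genes by the difference of the changes in limma, and 21 genes passed at an adjusted p under 0.05, of which 20 are given here. The change was higher in DKO for Lhx2 (5.96 on the log2 scale), Pcdhb9 (4.01), Gm6568 (2.64), Marcks (1.83) and Ghr (1.66). It was lower in DKO for Trp53bp2 (-1.24), Nedd4l (-1.60), Rora (-2.11), Defa20 (-2.81), Fign (-4.07), Aadacl3 (-5.05), Msmb (-5.29), Pbsn (-5.84), Hcrtr1 (-5.87), Rimklb (-6.28) and Mstn (-6.93). The lowest differences were those of Lars2 (-7.84), 3425401B19Rik (-8.07), Myom2 (-9.93) and Mybpc1 (-11.97). Among 12-week DKO animals, Mybpc1, Myom2, Mstn and 3425401B19Rik were highest in replicates 1 and 4, whose Ttn share was above 1%. Aadacl3, Pbsn, Msmb and Defa20 were at 0 at endstage in DKO, DKO_EE and DKO_EP, so their differences rest on the 12-week values. Against DKO_EP, the change of Lars2 was lower in DKO by -12.06.

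Single 12-week animals stood far from the other 3 of their group for 16 of the 231 genes named here. For normally distributed values, chance gives such a gap in about 1 of 20 groups, a share near this one. Replicate 4 was low for Dpp10 (0.00), Krt15 (7.44), Msmb (3.90), Myh11 (8.94), Pbsn (3.37) and Tph1 (1.11), and high for Gm6568 (1.74) and Krt18 (12.36). Replicate 3 was low for Ccr2 (8.19) and Nr3c1 (9.47) and high for Esr2 (5.78), Fgfr3 (9.22), Gad2 (2.06) and Prrt3 (2.39). Replicate 1 was low for Atoh1 (2.81) and high for Lhx2 (2.33). For Gad2, Gm6568, Lhx2 and Prrt3, the other 3 animals were listed at 0, so any value above 0 in the fourth is flagged and the chance rate does not apply.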

How the results depend on the processing

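The counts of 3023 higher and 3140 lower genes stayed within 1.5 times under every alternative other than the identifier letters as a covariate, which gave 1216 and 1034 and held 2207 of the 6163 calls; the cause was not tested. Leaving out 1 animal gave 2461 to 2797 higher and 2378 to 2883 lower genes. Limma-voom on total reads gave 3679 and 2559, so 58.98% of calls were higher in place of 49.05%, with the median over all genes shifted by 0.161. Against DKO_EE, the 21 genes became 9 with the filter, 41 and 32 by limma-voom with total and deposited scaling, 614 with array weights, 0 with the letters (700 at an unadjusted p under 0.05) and 15 to 42 with 1 animal left out. Against DKO_EP, the 1 gene became 2 by limma-voom with either scaling, 10 with array weights, 0 with the letters (188 at an unadjusted p under 0.05), 7 without 12-week replicates 1 and 4, and 1 to 3 with 1 animal left out. Of 183 called genes named here, 93 lost no call under any alternative that has a test, and 78 lost the call with the letters. Gm6568 reversed with the letters (-0.0162) and between the 2 DKOE animals (-0.257), and Hand2 with the letters (0.34). The 7 DKO animals alone give no test against the other genotypes. No paired analysis was possible because the labels give no replicate numbers that groups share. With 3 reads as the least that counts as seen, differences among genes near 0 are limited by depth.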

Other observations

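Dendritic and mast cell genes were called in both directions, with 2 of 16 in each beside 18% and 18.7% of all genes. Among them, Batf3, a factor of dendritic cells, and Zbtb46 rose by 2.20 and 0.79, while Ccl22, a chemokine of dendritic cells, and Clec9a fell, with differences of -3.59 and -2.22, and 12 did not pass. Zbtb46 did not pass without any 1 animal other than 12-week replicate 1 (adjusted p = 0.0611 to 0.158), nor Clec9a without endstage replicate 2 (0.196) or 12-week replicate 1 or 2 (0.0795 and 0.0797). None of 7 erythroid genes passed in limma (1 at an unadjusted p under 0.05), and limma-voom on total reads, array weights and the 7 DKO animals alone called 1 higher each. Of 20 genes of mesenchymal states, Cdh2 rose, Tgfb2 and Tgfbr2 fell, with differences of -2.90 and -2.07, and 17 did not pass. Without endstage replicate 3, or without 12-week replicates 1 and 4, 1 of these passed as lower.

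The letters CAGCTG, a form of the E-box that proneural factors are known to bind, were searched on both strands of the same promoter windows. They lay in 27.8% of the windows of the neuroendocrine factor list, in 30% of those of the synapse list, in 17.1% of those of the cell cycle list and in 16.3% of all windows. These shares are descriptions, without a test.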
